A study of Mus musculus with 9 samples.

Results

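Phospholipase C enzymes form a family of signalling genes, and 10 of its members (Plce1, Plcb1, Plcb3, Plcb4, Plcg1, Plcg2, Plcd1, Plcd4, Plch2 and Plcl1) were followed in ribosome-bound RNA of mouse striatum. They are 10 of the 47729 gene identifiers in the data. A filter on low levels, a level of 1 CPM or more (CPM being the reads of a gene scaled to the total of its library) in no fewer than 3 libraries, kept 13695 genes and 9 of the 10 members, and Plcg2 did not pass it. The family was chosen because Plce1 is among the strongest rises after deletion of the neurotrophin receptor TrkB. The differences of the members from control are therefore given as a description, with no test, and the members were tested between the deleted groups, which that choice did not use.

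The study precipitated polyribosomes from the dorsal striatum of 28-day-old mice (P28, strain C57BL/6). RiboTag mice gain a hemagglutinin (HA) tag on a ribosomal protein wherever Cre acts, and an antibody to the tag pulls down the ribosomes of the cells that expressed Cre. The D1-Cre line expresses Cre from the dopamine D1 receptor gene and targets the D1 medium spiny neurons, the direct-pathway output cells of the striatum. The 9 libraries were 3 control libraries (D1-Cre-RT), 3 from mice with floxed TrkB in addition and with stereotypy, that is repetitive behavior (D1-Cre-flTrkB-RT, stereotypy), and 3 from mice of that genotype without stereotypy. All groups, the controls included, carried D1-Cre and the tag. The controls lacked the floxed allele in their label, the labels call the libraries biological triplicates, and no batch, sex or pooling of animals is stated. RNA before precipitation was not analysed here, so the enrichment of D1 neuron RNA was not measured.

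Phospholipases C cut the membrane lipid PIP2 into IP3, which releases calcium from internal stores, and diacylglycerol (DAG), which activates protein kinase C. The beta enzymes answer to receptors coupled to Gq proteins, the gamma enzymes dock on receptor tyrosine kinases such as TrkB, and the epsilon enzyme is driven by small GTPases such as those of the Ras and Rap families. The delta and eta enzymes respond mainly to calcium, and Plcl1 encodes a relative that binds IP3 but has lost catalytic activity. In medium spiny neurons this pathway links metabotropic glutamate and muscarinic receptors to calcium release and to the synthesis of endocannabinoids.

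The libraries held 27103152 to 40578512 reads, so that 3 reads correspond to 0.0739 to 0.111 CPM, the limit that a count of 0 allows for counting error alone. Ntrk2, the gene of TrkB, checked the labels. It stood at 319, 385 and 487 CPM in the controls, at 34.3, 43.9 and 40.7 with stereotypy and at 23.4, 14.1 and 19.2 without. All 7 markers of D1 medium spiny neurons were present in every library, with summed levels of 1763 to 2381 CPM in the controls, 2186 to 2246 with stereotypy and 1481 to 1836 without. Markers of other cells were present too. The sum of 5 D2 medium spiny neuron markers was 443 to 1433, 259 to 424 and 597 to 1050 CPM in the same order, that of 5 cortical excitatory neuron markers 268 to 842, 155 to 278 and 571 to 1409 CPM, and that of 10 astrocyte markers 449 to 555, 633 to 663 and 446 to 557 CPM. Most of the astrocyte sum came from Slc1a2 (means 187, 179 and 176 CPM) and Slc4a4 (275, 394 and 253 CPM). Of the 10 astrocyte markers, 4 were higher in the limma test of both deleted groups against control, beside 3.67% of all tested genes. With stereotypy alone 6 were higher (beside 3.58%), and without stereotypy 1 was (beside 3.76%). In these precipitates, as in any bulk sample, fewer cells of a type and less RNA per cell cannot be told apart.

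Plcb1 was the dominant member in D1 neuron precipitates. To compare genes, levels were divided by the exon length of each gene. In the controls Plcb1 stood at 58.2 CPM per kilobase (mean, n = 3), followed by Plcg1 at 9.59 and Plch2 at 5.57 CPM per kilobase, and no libraries of neighbours in this order overlapped down to Plch2. Plcb4 at 2.11 and Plcl1 at 1.81 CPM per kilobase overlapped each other. The remaining 5 members, Plcd1, Plce1, Plcb3, Plcg2 and Plcd4, lay between 0.5 and 0.146 CPM per kilobase, and each overlapped its neighbour in the order. Plce1 was thus among the low members in control mice, at 0.458 CPM per kilobase. It was the fourth member with stereotypy, at 2.72 CPM per kilobase, where its libraries overlapped those of Plcb4 (2.19). Without stereotypy it was the fifth, at 2.63 CPM per kilobase, between Plcb4 (3.54) and Plcl1 (2.4), and its libraries overlapped those of both. Of the summed per-kilobase level of the 10 members, Plce1 made up 0.586% in the controls, 3.17% with stereotypy and 3.6% without, and Plcb1 made up 73.7%, 69.4% and 59.8%.

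**Figure D1:**
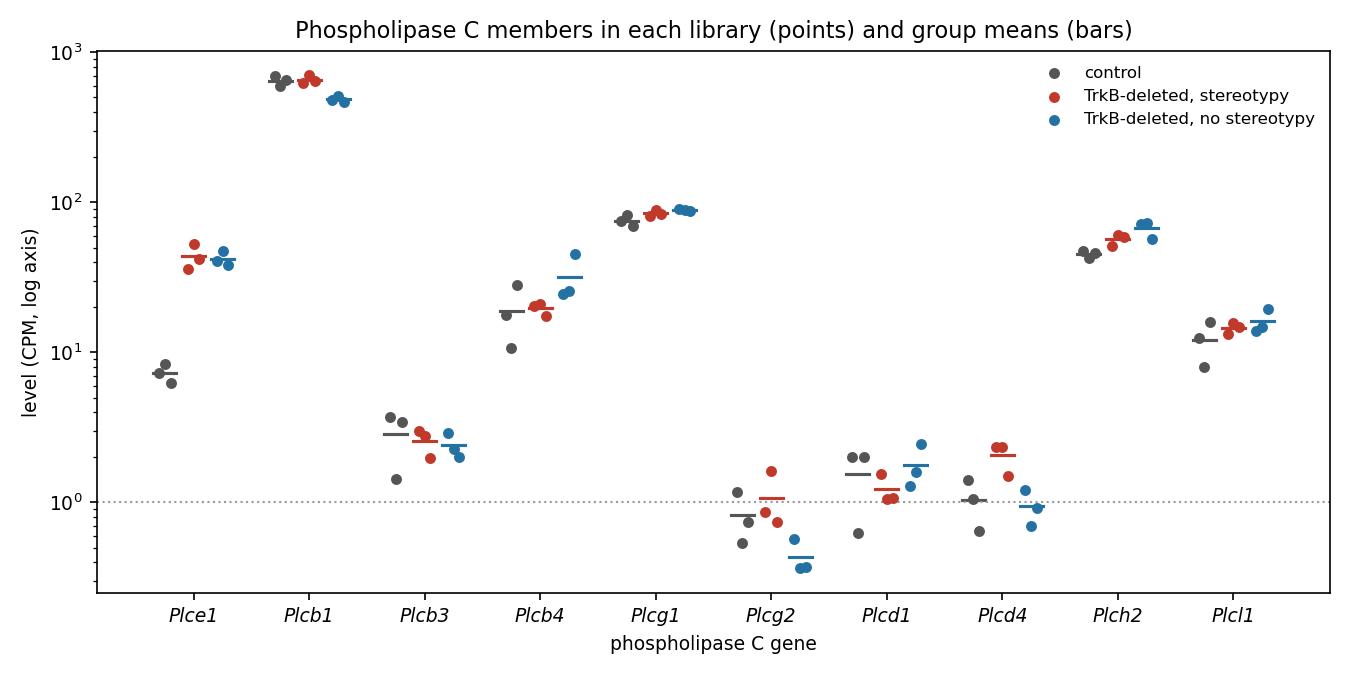
Level of each of the 10 members in every library, in CPM on a log axis; points are single libraries and bars are group means (3 libraries per group: control, TrkB-deleted with stereotypy, TrkB-deleted without stereotypy), and the dotted line marks 1 CPM. Plce1 lies between 6.29 and 8.4 CPM in the controls and between 36.1 and 52.8 CPM in the 6 deleted libraries, while each of the other members spans a narrower range on this log axis.

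Plce1 (ENSMUSG00000024998, GRCm38 chromosome 19, 38481109 to 38785030, plus strand) encodes phospholipase C epsilon, which is both an effector of Ras family GTPases and, through a domain of its own, an activator of Rap1. Its level was 7.31, 8.4 and 6.29 CPM in the controls, 36.1, 52.8 and 41.8 with stereotypy and 40.7, 47.7 and 38.0 without. All 6 deleted libraries were above all 3 controls, and the groups with and without stereotypy overlapped. The means were 7.33 ± 1.06, 43.6 ± 8.48 and 42.1 ± 4.99 CPM (SD, n = 3 each), which is 5.94 times the control mean with stereotypy and 5.75 times without. On the log2(CPM + 1) scale, which understates changes of low genes, the difference from control was 2.41 (SE 0.16) with stereotypy, 2.37 (SE 0.16) without and 2.39 (SE 0.14) for both deleted groups. That difference was number 3 among the rises of all 13695 tested genes, after Ceacam10 (2.87) and Tnni3 (2.45). These levels rest on 205 to 297 reads per control library and 1009 to 1703 reads per deleted library. The difference for both groups kept between 2.30 and 2.48 when any 1 library was left out. With a score of glial and vascular markers as a covariate it was 2.57, and with a score of other neurons (D2 medium spiny, cortical and interneuron markers) it was 2.37.

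Between the deleted groups, Plce1 did not pass the test. The difference of stereotypy minus no stereotypy was 0.04 on the log2 scale (SE 0.16, 95% interval -0.31 to 0.38, limma adjusted p = 0.903), so a change of up to about these bounds in either direction was not resolved. Ntrk2 itself differed between these groups, by 1.05 (SE 0.19, limma adjusted p = 0.0206). The residual Ntrk2 level was higher in all 3 libraries with stereotypy than in all 3 without. The Ntrk2 call ended without stereotypy library 2 (adjusted p = 0.0678), stereotypy library 3 (0.0825), no-stereotypy library 1 (0.061) or no-stereotypy library 2 (0.0662). Over all tested genes these fits had 0 to 1 calls, beside 1398 with all libraries. Over all 20 alternatives the Ntrk2 difference was 0.57 to 1.3, and 6 of them ended its call. The part of other cells in the residual Ntrk2 level was not tested.

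The genes whose levels ran closest to those of Plce1 were sought over the whole table. For 9873 protein-coding genes with a mean of at least 5 CPM, log2(CPM + 1) in the 9 libraries was centred on the control mean, and the root-mean-square difference from Plce1 was taken as the measure of likeness. The 8 closest genes were Tnni3 (0.363), Ceacam10 (0.458), Cldn23 (0.472), Cxcl14 (0.473), Trpv6 (0.526), Kirrel (0.573), Ntn1 (0.603) and Tpbg (0.645). Trpv6 encodes a calcium channel of epithelia, and its means were 1.57 CPM in the controls, 7.55 with stereotypy and 9.11 without. Kirrel, a nephrin-related adhesion molecule, stood at 2.5, 10.4 and 10.9 CPM, and Cldn23, a claudin, at 3.02, 12.8 and 16.3 CPM. All 6 deleted libraries were above the controls in each of the 8, as the likeness to Plce1 requires, beside 6.05% of all tested genes. Tnni3 and Ceacam10 passed the filter through the deleted libraries alone. These genes, and also Cldn23, Trpv6 and Kirrel, met the bound of a mean of 5 CPM only through the deleted libraries. The other tested members were farther from Plce1 than the 8 genes, with values from 1.604 (Plch2) to 2.123 (Plcb1).

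**Figure D2:**
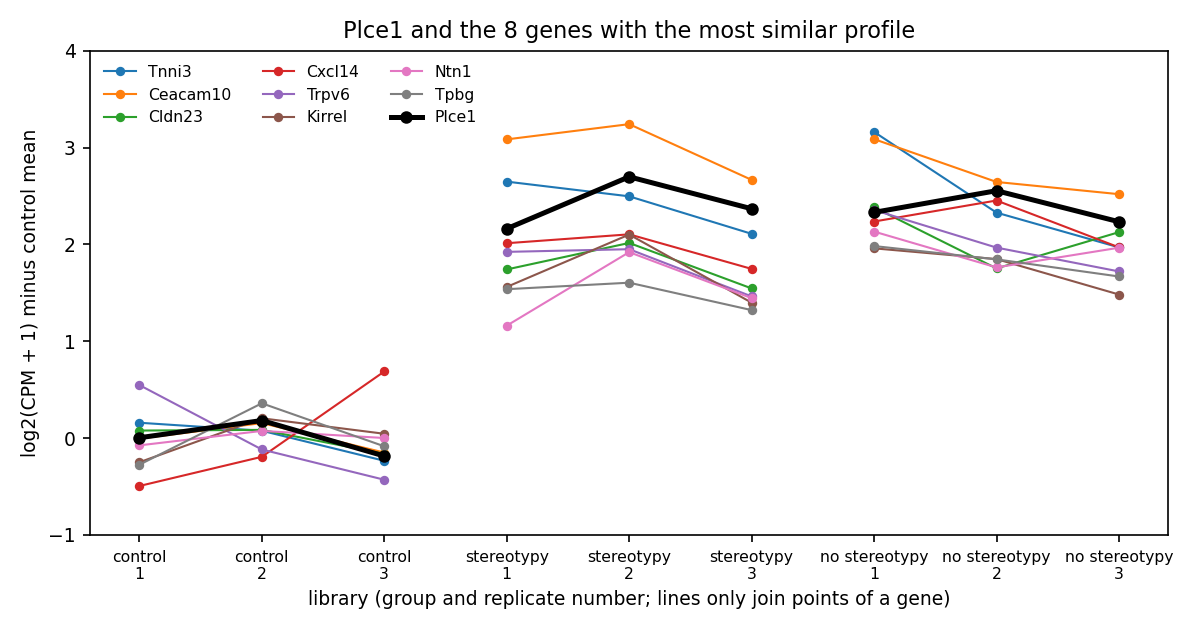
Profiles of Plce1 and of the 8 genes most like it over the 9 libraries, as log2(CPM + 1) minus the mean of the control libraries; each line is 1 gene and the libraries are grouped by condition. The control libraries scatter around 0 and the 6 deleted libraries lie above it for every line, with Ceacam10 highest in the 3 stereotypy libraries.

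Rises were sought among the genes next to Plce1 as well. Within 500 kilobases of the gene, 23 other genes are annotated, of which 7 passed the filter and 16 did not, with 10 of the latter at 0 in every library. For both deleted groups against control, 2 of the 7 fell and none rose in the limma test, where 3.67% of all tested genes were higher and 2.05% lower. At an unadjusted p under 0.05, 1 was higher (Noc3l), and none was higher by edgeR or DESeq2. Rbp4, a retinol carrier that lies 356 kilobases before Plce1, stood at 18.7, 20 and 13.4 CPM in the controls, 8.52, 8.23 and 7.38 with stereotypy and 7.26, 6.83 and 9.09 without. All 6 deleted libraries were below the controls, with a difference of -1.04 on the log2 scale (SE 0.14, limma adjusted p = 0.00304), and with the glial and vascular covariate it was -1.08 (limma adjusted p = 0.184). Lgi1, a secreted synaptic protein known from epilepsy, fell by 0.36 (SE 0.08, limma adjusted p = 0.0291), and this call ended without any 1 library except stereotypy library 3 and no-stereotypy library 3 (adjusted p = 0.0622 to 0.078). Noc3l, which lies 3.1 kilobases beyond the end of Plce1, differed by 0.31 (SE 0.14, limma adjusted p = 0.23). Fra10ac1 (0.21), Slc35g1 (0.18), Tbc1d12 (0.05) and Hells (0.38) did not pass either. The antisense gene Gm28991, which lies within Plce1, was at 0 in every library.

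**Figure D3:**
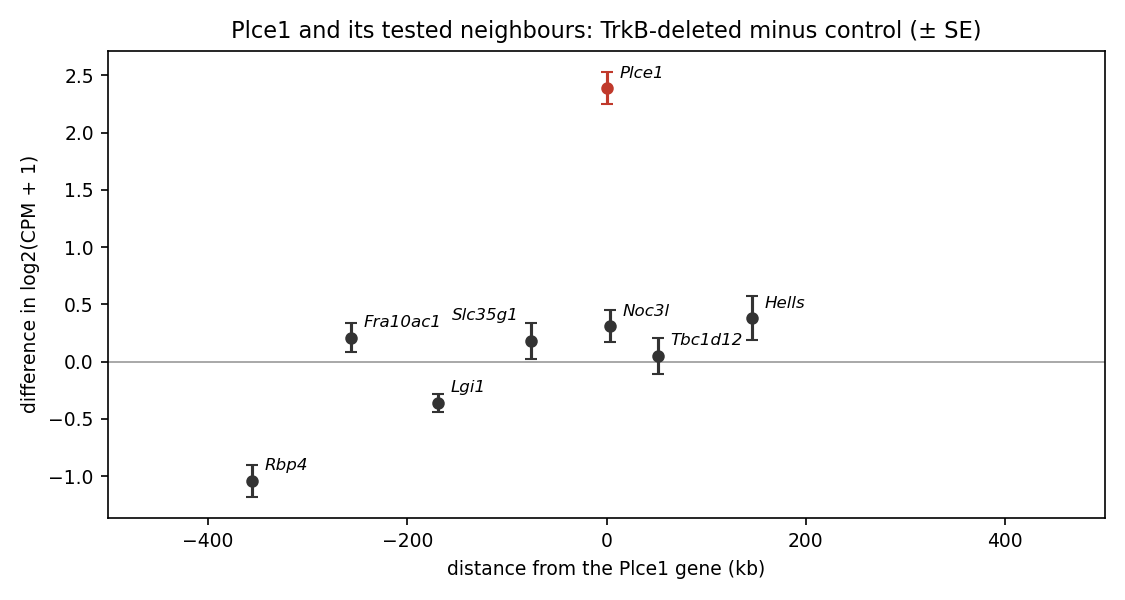
Difference in log2(CPM + 1) of both TrkB-deleted groups minus control for Plce1 and the 7 tested genes within 500 kilobases, against the distance from the Plce1 gene in kilobases (negative before it); vertical bars are ± SE from the limma fit. Plce1 stands at 2.39, Rbp4 at -1.04, Lgi1 at -0.36 and the others between 0.05 and 0.38.

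Plcb1 (ENSMUSG00000051177, GRCm38 chromosome 2, 134786067 to 135475258, plus strand), the main Gq effector of forebrain neurons, was the member past the test threshold between the deleted groups. Its level was 692, 592 and 656 CPM in the controls, 624, 702 and 646 with stereotypy and 478, 511 and 468 without. The control and stereotypy libraries overlapped, and all 3 libraries without stereotypy lay below both other groups. The means were 647 ± 50.3, 658 ± 40.3 and 486 ± 22.6 CPM (SD, n = 3 each), so that the level with stereotypy was 1.35 times that without. The difference of stereotypy minus no stereotypy was 0.44 on the log2 scale (SE 0.09, 95% interval 0.24 to 0.63, limma adjusted p = 0.0231). Against control the differences were 0.02 (SE 0.09) with stereotypy and -0.41 (SE 0.09) without, given with no test.

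The size of the Plcb1 difference was steadier than its call. Without stereotypy library 2 it was 0.39 (limma adjusted p = 0.0772), without stereotypy library 3 it was 0.45 (0.0868), without no-stereotypy library 1 it was 0.42 (0.0794) and without no-stereotypy library 2 it was 0.47 (0.0678). In each of these fits the whole comparison had 0 to 1 calls over all tested genes, so the loss is not particular to Plcb1. Other cell types moved along the same contrast. Of the markers shared by all medium spiny neurons, Foxp1, Pde10a and Bcl11b were higher with stereotypy, as was 1 of 7 D1 markers (Drd1, by 0.57), while 1 of 5 cortical markers (Slc17a7) was lower, and 3 of 10 astrocyte, 2 of 7 microglial and 1 of 7 tested vascular markers were higher. With the glial and vascular score as a covariate the Plcb1 difference was 0.43 (limma adjusted p = 0.209), and with the score of other neurons, chosen after seeing the data, it was 0.47 (limma adjusted p = 0.0791). With either covariate the whole comparison had 0 to 1 calls over all 13695 genes, beside 1398 with neither.

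The sequence before the Plcb1 start is shown because it is the member past the threshold between the deleted groups. It is the stretch of the 250-base window before the RefSeq start that lies outside annotated exons, chr2:134785914-134786066 on the plus strand (GRCm38, 153 bases, sequence from RefSeq), with CpG dinucleotides in capitals.

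Plcb1: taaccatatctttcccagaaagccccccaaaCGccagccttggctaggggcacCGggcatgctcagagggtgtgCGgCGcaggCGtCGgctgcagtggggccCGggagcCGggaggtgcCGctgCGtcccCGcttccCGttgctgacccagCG

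This stretch holds 13 CpG dinucleotides and is 69.3% G or C. Over the full window Plcb1 had 71.2% GC and 22 CpG dinucleotides, where the median of 32851 RefSeq promoter windows of that length was 52.4% and 6. The window of Plce1 had a low GC content of 38.8% (percentile 9.7) and 6 CpG dinucleotides, which is the median count. Its RefSeq start lies 43.1 kilobases inside the gene as GENCODE annotates it. All 250 bases of this window lie in annotated exons, so its composition is that of exon sequence. All 10 members had a RefSeq window, with 2 each for Plcb4, Plcd1, Plcd4 and Plch2, and 7 motifs were searched on both strands. None was found for Plce1 or Plcb1. The AP-1 site TGANTCA, present in 6.75% of all windows, was found for Plcb3 and for 1 of the 2 windows of Plch2. The EGR site GCGNGGGCG (4.7%) was found for Plcg1, and the E-box CACGTG (6.02%) for Plcg2. The cAMP response element TGACGTCA (1.55%), the POU octamer ATGCAAAT (1.6%), the ETS site CCGGAAGT (2.88%) and the serum response element (0.0609%) were in no member window. A match describes letters in these windows and nothing about binding.

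The other beta enzymes did not pass the test between the deleted groups. Plcb4 (chromosome 2, 135659011 to 136014593), known for its role in cerebellar and thalamic neurons, stood at 17.7, 10.7 and 28.3 CPM in the controls, 20.5, 21.1 and 17.4 with stereotypy and 24.6, 25.7 and 45.1 without. All 3 libraries with stereotypy were below all 3 without, with a difference of -0.62 (SE 0.30, 95% interval -1.29 to 0.05, limma adjusted p = 0.199). Control library 3 and no-stereotypy library 3, the highest of their groups for Plcb4, were also the highest of their groups in summed cortical, D2 and interneuron markers. With stereotypy, library 2 was the highest for Plcb4 and in summed D2 and interneuron markers, and library 1 was the highest in cortical markers. With the score of other neurons as a covariate the difference between the deleted groups was 0.22 (limma adjusted p = 0.489), in the opposite direction. The part of other cells in the Plcb4 levels was not tested. Plcb3 (chromosome 19, 6952325 to 6976470), a widely expressed beta enzyme, stood between 1.44 and 3.7 CPM in the 9 libraries, and its groups overlapped throughout (stereotypy minus no stereotypy 0.07, 95% interval -0.48 to 0.62, limma adjusted p = 0.879).

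The gamma enzymes are the members that TrkB itself recruits. Plcg1 (chromosome 2, 160731300 to 160775760), the neuronal gamma enzyme that docks on activated TrkB, stood at 74.7, 81.9 and 69.4 CPM in the controls, 81.6, 88.3 and 83.1 with stereotypy and 90.3, 88.5 and 88.0 without. The control and stereotypy libraries overlapped at 81.6 to 81.9 CPM, and the libraries with and without stereotypy overlapped at 88.0 to 88.3 CPM. Relative to control the difference was 0.16 (SE 0.09) with stereotypy and 0.24 (SE 0.09) without. The difference between the deleted groups was -0.08 (SE 0.09, 95% interval -0.27 to 0.11, limma adjusted p = 0.588). Plcg1 shares 379 exon bases with Zhx3 on the opposite strand, which reached 101 CPM, and since the use of strand in counting is not given in the sources used here, part of its reads may belong to that gene. Plcg2 (chromosome 8, 117498291 to 117635142), the gamma enzyme of blood cells and microglia, was listed at 0.364 to 1.61 CPM, on 13 to 50 reads per library. It stood at 1.18, 0.538 and 0.736 CPM in the controls, 0.859, 1.61 and 0.738 with stereotypy and 0.569, 0.364 and 0.37 without, so that the libraries with stereotypy were all above those without. The sum of 7 microglial markers was 16.6 to 20 with stereotypy and 7.65 to 10.3 without, and its part in the Plcg2 levels was not tested.

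The delta enzymes were low. Plcd4 (chromosome 1, 74542888 to 74567794) stood at 1.4, 1.05 and 0.644 CPM in the controls, 2.33, 2.35 and 1.51 with stereotypy and 1.21, 0.7 and 0.912 without. All 3 stereotypy libraries were above all other libraries. The difference from the group without stereotypy was 0.65 (SE 0.20, 95% interval 0.21 to 1.1) with a limma adjusted p of 0.0617, just short of the threshold of 0.05. Plcd4 shares 2101 exon bases with Zfp142 on the opposite strand, which reached 33.1 CPM, so its level is uncertain. Plcd1 (chromosome 9, 119071527 to 119093502), a calcium-sensitive enzyme, stood between 0.622 and 2.46 CPM with overlap between all groups (stereotypy minus no stereotypy -0.31, 95% interval -0.88 to 0.26, limma adjusted p = 0.449).

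Plch2 (ENSMUSG00000029055, chromosome 4, 154983115 to 155056784), the neuronal eta enzyme, was the other member whose deleted libraries all lay above the controls. It stood at 47.1, 42.7 and 45.7 CPM in the controls, 51.3, 60.6 and 58.8 with stereotypy and 71.3, 73.1 and 57.3 without. The means were 45.2 ± 2.25, 56.9 ± 4.95 and 67.2 ± 8.67 CPM (SD, n = 3 each), or 1.26 and 1.49 times the control mean. The difference for both deleted groups was 0.44 (SE 0.10) and stayed between 0.40 and 0.52 over all alternatives. Stereotypy and no stereotypy overlapped, with a difference of -0.23 (SE 0.11, 95% interval -0.48 to 0.02, limma adjusted p = 0.195). Plcl1 (chromosome 1, 55405921 to 55754285), the inactive relative that also binds partners of GABA-A receptors, stood at 12.4, 7.98 and 15.9 CPM in the controls, 13.2, 15.6 and 14.8 with stereotypy and 13.8, 14.8 and 19.6 without. Its groups overlapped (stereotypy minus no stereotypy -0.12, 95% interval -0.6 to 0.35, limma adjusted p = 0.731).

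**Figure D4:**
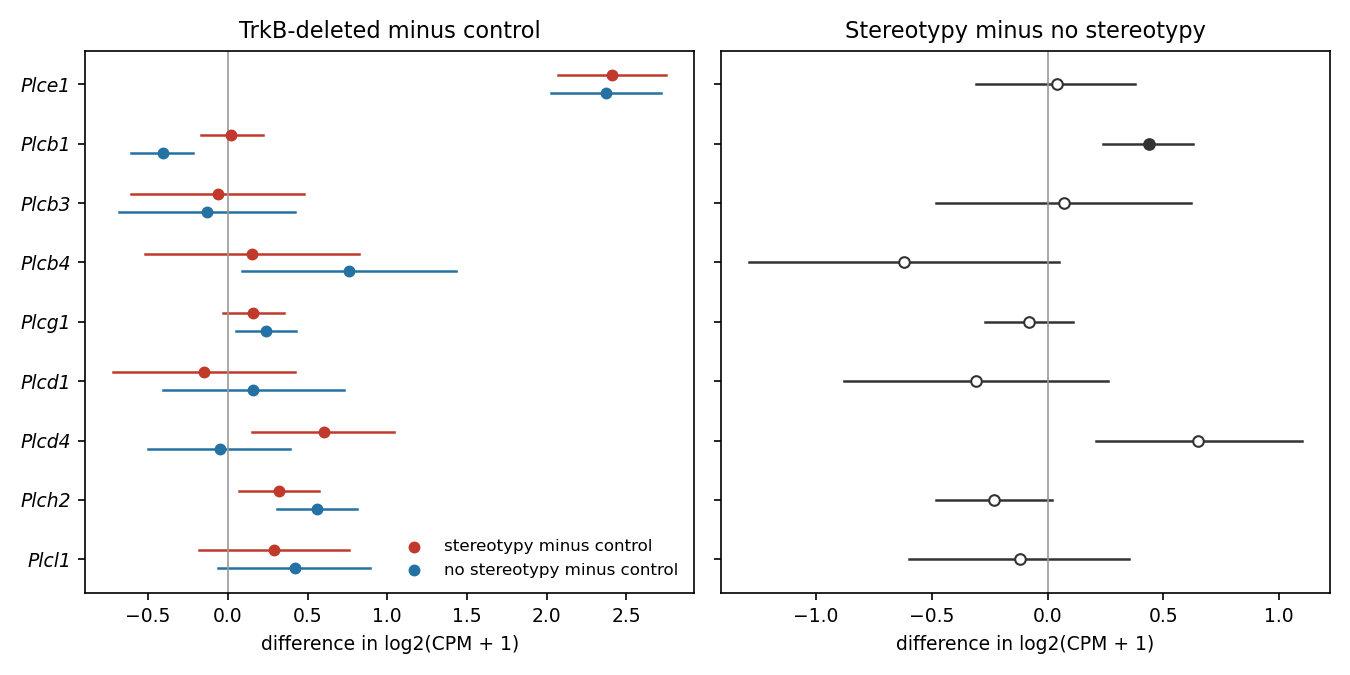
Differences in log2(CPM + 1) of the 9 tested members between groups, with 95% intervals from the limma fit; the comparisons with control are a description and stereotypy minus no stereotypy was tested. Plce1 stands at 2.41 and 2.37 against control and at 0.04 between the deleted groups, where Plcb1 (0.44, filled point) is the member past the threshold.

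Across the family, 1 of the 9 tested members was higher with stereotypy than without (Plcb1) and none was lower, where 10.2% of all tested genes passed the limma threshold in either direction. At an unadjusted p under 0.05 there were 2 (Plcb1 and Plcd4), and edgeR and DESeq2 each called 1. The median difference of the members was -0.08, beside 0.018 over all tested genes. Of the 9, Plcb1 and Plcd4 had all stereotypy libraries above those without stereotypy (20.8% of all tested genes) and Plcb4 had all below (17.5%), or 3 of 9 beside 38.3% in either direction. For both deleted groups against control, 2 of 9 were past the threshold, both higher (Plce1, whose place in this count was fixed by the choice of the family, and Plch2), beside 5.72% of all genes in either direction, 3.67% higher and 2.05% lower. The same pair had all 6 deleted libraries above the controls, as did 6.05% of all genes, with 3.25% below and 9.3% in either direction. With stereotypy alone 1 of 9 was past the threshold and higher, beside 3.58% of all genes higher and 1.53% lower (5.1% in all). Without stereotypy 2 were higher and Plcb1 was lower, beside 3.76% and 3.01% of all genes (6.77% in all). These counts against control rest on the contrast that chose the family, and nothing is read from them. The comparisons share the control libraries.

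The wider phosphoinositide pathway was described with 148 genes in 10 lists that hold no member, of which 132 were tested. Pitpnm1 and Rasgrp2, genes known from brain, were listed at 0 in every library, which may be a failed estimate; they were singled out after their values were seen. For both deleted groups against control, 8 were higher (6.06%) and 11 lower (8.33%) in the limma test, beside 3.67% and 2.05% of all tested genes, and the median difference was 0.02, beside 0.04. By edgeR, which changes both the scaling and the test, the split was 5 higher and 12 lower. The count was 7 without control library 1 and 12 without stereotypy library 2. With the glial and vascular score as a covariate it was 0, with 19 at an unadjusted p under 0.05. Over all tested genes that fit had 28 calls, beside 784 without the covariate. The glial and vascular score was -0.821 to -0.338 in the controls, 0.447 to 0.996 with stereotypy and -0.812 to 0.152 without.

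**Figure D5:**
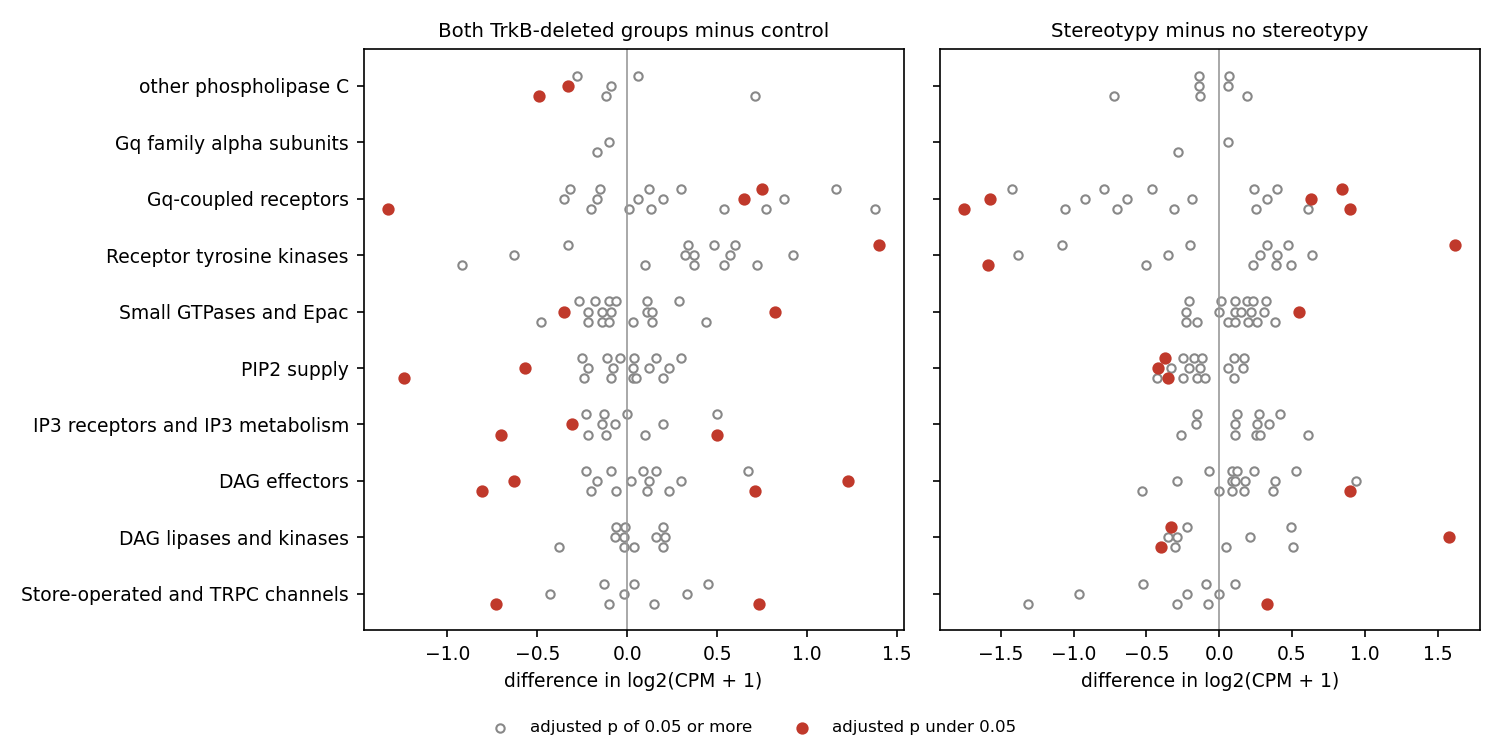
Difference in log2(CPM + 1) of each tested pathway gene, by list, for both TrkB-deleted groups minus control (left) and stereotypy minus no stereotypy (right); each point is 1 gene and filled points have a limma adjusted p under 0.05. Filled points lie on both sides of 0 in 5 of the 10 lists on the left and in 3 on the right, and Pitpnm3 (-1.24) and Oxtr (-1.33) are the lowest filled points on the left.

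Among the other phospholipase C genes, 2 of 7 tested were lower after deletion. Beside this count, and those against control of the lists that follow, stand 3.67% of all tested genes higher and 2.05% lower. No list was tested as a set, so these small counts are not read as results about a step of the pathway. Plcxd1, a member with the catalytic X domain alone, stood at 39.5, 49.3 and 46.4 CPM in the controls, 32.0, 29.2 and 29.1 with stereotypy and 36.5, 32.1 and 31.1 without (difference -0.49, SE 0.10, limma adjusted p = 0.0154, and 0.0516 without control library 2). Plcl2, the second inactive relative, is the next most abundant of the 18 phospholipase C genes after Plcb1 on the per-kilobase scale, with 26.3% of their sum in the controls. It stood at 226, 245 and 215 CPM in the controls, 175, 198 and 209 with stereotypy and 174, 177 and 159 without, and fell by 0.33 (SE 0.08, limma adjusted p = 0.0389). That call ended without any 1 library except control library 3 and stereotypy library 3 (adjusted p = 0.0572 to 0.112).

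Upstream of the beta enzymes, neither of the 2 tested Gq family alpha subunits passed for both deleted groups against control, by limma, at an unadjusted p under 0.05 or by edgeR or DESeq2. Gnaq, the alpha subunit itself, stood at 238 ± 24.4 CPM in the controls, 226 ± 5.55 with stereotypy and 218 ± 30.7 without (SD, n = 3 each). Gna11, its close relative, stood at 116, 145 and 124 CPM in the controls, 106, 106 and 97.1 with stereotypy and 128, 128 and 120 without, and was named after its values were seen. All 3 libraries with stereotypy were below all others, with a difference from those without of -0.28 (SE 0.10, limma adjusted p = 0.0811), a gene that DESeq2 called. Of 19 Gq-coupled receptors, 2 were higher and 1 lower. Oxtr, the oxytocin receptor, stood at 4.93, 10.8 and 7.17 CPM in the controls, 1.68, 2.76 and 1.59 with stereotypy and 2.4, 2.86 and 2.78 without, all 6 deleted libraries below the controls (difference -1.33, SE 0.21, limma adjusted p = 0.00587). F2r, a thrombin receptor, went from 1.8 ± 0.617 to 4.75 ± 0.638 and 2.78 ± 0.667 CPM (difference 0.75, limma adjusted p = 0.0321). Ednrb, an endothelin receptor known from astrocytes, went from 0.908 ± 0.138 to 3.08 ± 0.361 and 1.21 ± 0.436 CPM (difference 0.65, limma adjusted p = 0.0364). Its controls stood at 1.04, 0.764 and 0.92 CPM, so it passed the filter through the deleted libraries. Its difference from control is therefore no independent support. The F2r call ended without control library 1 or 2, stereotypy library 1 or 2, or no-stereotypy library 2 or 3 (adjusted p = 0.0525 to 0.116), and that of Ednrb without any 1 library except no-stereotypy library 3 (0.0569 to 0.107).

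Of the 15 receptor tyrosine kinases other than TrkB, the class upstream of the gamma enzymes, 1 was higher. Kdr, a VEGF receptor of endothelium, stood at 0.438, 0.255 and 0.644 CPM in the controls, 1.65, 5.24 and 1.33 with stereotypy and 2.79, 3.92 and 3.23 without, with a difference of 1.40 (SE 0.28, limma adjusted p = 0.0153). Kdr was under 1 CPM in every control and passed the filter through the deleted libraries alone, so its difference is no independent support. The call ended without control library 1 (adjusted p = 0.0577) or 2 (0.0523). The sum of 8 vascular markers, of which Acta2 was at 0 in control library 2, was 9.93 to 26.6 CPM in the controls, 32.1 to 81 with stereotypy and 9.86 to 23.3 without, and its part in this result was not tested. Of the kinases, Flt1, Pdgfra, Pdgfrb and Fgfr3 are also in the marker lists of other cells.

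Of 20 regulators that act on phospholipase C epsilon, the small GTPases and their exchange factors, 1 was higher and 1 lower. Rapgef3 (Epac1), the cAMP-driven exchange factor that loads Rap proteins, stood at 2.44, 3.48 and 3.68 CPM in the controls, 5.33, 7.97 and 6.09 with stereotypy and 7.03, 6.53 and 5.57 without. All 6 deleted libraries were above the controls, with a difference of 0.82 (SE 0.16, limma adjusted p = 0.0133, and 0.0602 without control library 1). Rap2b, a Rap GTPase that binds phospholipase C epsilon, stood at 132 ± 1.34 CPM in the controls, 111 ± 4.26 with stereotypy and 96.6 ± 6.22 without, and fell by 0.35 (limma adjusted p = 0.016, and 0.0557 without control library 1).

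In the supply of PIP2, 2 of 18 genes were lower, both of them lipid transfer genes. Pitpnm3, of the family that carries phosphatidylinositol to the plasma membrane, stood at 85.0, 85.2 and 108 CPM in the controls, 37.5, 29.8 and 38.6 with stereotypy and 33.4, 40.4 and 53.8 without. Every deleted library was below every control, and the difference was -1.24 (SE 0.15, limma adjusted p = 0.00115). Pitpnc1 went from 177 ± 14.6 to 125 ± 10 and 112 ± 10.6 CPM (difference -0.57, limma adjusted p = 0.00484).

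Downstream of IP3, 1 of 13 genes was higher and 2 were lower. Ippk, the kinase that makes IP6, stood at 40.6, 55.7 and 39.9 CPM in the controls, 32.6, 26.5 and 30.5 with stereotypy and 24.2, 28.3 and 22.5 without, all 6 below the controls (difference -0.70, SE 0.13, limma adjusted p = 0.0108). Inpp5a, which removes a phosphate from IP3, fell by 0.31 (limma adjusted p = 0.0497), and Impa2, an inositol monophosphatase, rose by 0.50 (limma adjusted p = 0.0291). The Inpp5a call ended without any 1 library except control library 3 (adjusted p = 0.0667 to 0.148), and that of Impa2 without any 1 except stereotypy library 3 and no-stereotypy library 3 (0.0604 to 0.0793).

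Downstream of DAG, 2 of 17 effectors were higher and 2 lower. Prkcb, a conventional protein kinase C and one of the most abundant genes of the pathway, stood at 1265, 1465 and 1269 CPM in the controls, 821, 740 and 817 with stereotypy and 664, 747 and 780 without. All 6 deleted libraries were well below the controls, with a difference of -0.81 (SE 0.08, limma adjusted p = 0.000529). Unc13b, a vesicle priming factor with a DAG-binding domain, went from 16.5 ± 6.18 to 55.6 ± 18.4 and 27.9 ± 6.77 CPM (difference 1.23, limma adjusted p = 0.0175, and 0.0574 without control library 2). Its relative Unc13c went from 73.6 ± 14.4 to 64.4 ± 9.0 and 34.0 ± 2.92 CPM (difference -0.63, limma adjusted p = 0.0185, and 0.0703 without control library 1). Chn2, a Rac-inactivating protein that binds DAG, went from 18.9 ± 3.78 to 28.4 ± 4.51 and 34.7 ± 3.01 CPM (difference 0.71, limma adjusted p = 0.0147, and 0.0574 without control library 1).

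None of the 11 tested DAG lipases and kinases, the enzymes that remove DAG, passed in the limma test of both deleted groups against control, with 2 at an unadjusted p under 0.05, none by edgeR and 1 by DESeq2. Of 10 store-operated and TRPC channels, Trpc7 was higher (0.73, limma adjusted p = 0.0442) and Trpc6 lower (-0.73, limma adjusted p = 0.0312). The Trpc7 call ended without any 1 library except control library 3 and stereotypy library 1 (adjusted p = 0.0554 to 0.157), and that of Trpc6 without any 1 except control library 2 and no-stereotypy library 3 (0.0531 to 0.0992). Both are DAG-gated channels of 1 subfamily.

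Between the deleted groups, 8 of the 132 pathway genes were higher with stereotypy (6.06%, beside 6.61% of all tested genes) and 8 were lower (6.06%, beside 3.6%). Dgkb, a DAG kinase known for its expression in striatum, stood at 694, 399 and 579 CPM in the controls, 760, 1246 and 1360 with stereotypy and 395, 355 and 341 without. All libraries with stereotypy were above all others, and the difference between the deleted groups was 1.58 (SE 0.23, limma adjusted p = 0.0154). Grm5, the Gq-coupled glutamate receptor mGluR5, and Htr2c, a Gq-coupled serotonin receptor, were chosen after their values were seen. Grm5 stood at 466, 313 and 415 CPM in the controls, 381, 438 and 421 with stereotypy and 217, 222 and 252 without (difference 0.84, SE 0.13, limma adjusted p = 0.0154). Htr2c stood at 68.6, 83.7 and 83.3 CPM in the controls, 73.0, 99.1 and 93.1 with stereotypy and 54.9, 56.5 and 57.5 without (difference 0.63, SE 0.12, limma adjusted p = 0.0225). In both, all 3 libraries without stereotypy were below all other libraries. Ednrb (0.90, limma adjusted p = 0.0225) and Unc13c (0.90, limma adjusted p = 0.0175) were also higher with stereotypy. In the other direction, and also chosen after their values were seen, the neurotensin receptor Ntsr1 differed by -1.75 (SE 0.38, limma adjusted p = 0.025) and the adrenergic receptor Adra1b by -1.57 (SE 0.41, limma adjusted p = 0.0375). Ntsr1 stood at 3.28, 1.7 and 5.46 CPM in the controls, 4.23, 5.08 and 3.28 with stereotypy and 13.2, 10.6 and 30.4 without. Its call ended without any 1 deleted library except no-stereotypy library 3 (adjusted p = 0.0515 to 0.0999), and that of Adra1b without any 1 deleted library (0.0776 to 0.12). With the other-neuron covariate the differences were -0.77 and -0.48. Pip5k1c, Dgkz, Cdipt, Pip4k2c and Daglb were lower as well, and the median of the 19 Gq-coupled receptors was -0.31, beside 0.018 over all genes. The calls of Dgkb, Grm5, Htr2c, Ednrb and Unc13c all ended without stereotypy library 2 or 3 or no-stereotypy library 1 or 2 (adjusted p = 0.0579 to 0.0902). Over all tested genes those fits had 0 to 1 calls. The pathway count was then 0, with 33 to 44 genes at an unadjusted p under 0.05. It was 8 without no-stereotypy library 3, 26 without control library 2 and 25 without control library 3.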

How the data were processed

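Polyribosome RNA of 9 libraries was analysed from the CPM values the authors deposited, 1 table per library. The aligner was TopHat and the build GRCm38, per the submitters' processing notes. The counter, its annotation and its handling of strand were not given in the sources used here. Values above 0 were whole multiples of 1 read in 100% of cases (tolerance 0.1 reads), so reads were recovered. Symbols and positions came from GENCODE M21 (99.12% of identifiers matched), and promoter windows from RefSeq (GRCm38.p6). The 13695 genes that reached 1 CPM in 3 or more libraries entered 1 limma fit (3.58.1, R 4.3.3) on log2(CPM + 1), with trended variance and 6 residual degrees of freedom. Benjamini-Hochberg adjustment ran over all of them, with a threshold of 0.05. The labels do not say that replicates came from separate animals beyond calling them biological triplicates, so p-values measure the spread between these libraries.

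The members and lists were chosen with earlier results of these data known. Named are all members, the targeted gene, per list the 2 called genes per direction with the largest difference from control or else the most abundant gene, the 8 genes most like Plce1 and its tested neighbours. Of 6 D2 markers, 5 were matched. Alternatives were pseudocounts of 0.25 and 4, median-of-ratios rescaling, a replicate block, a filter at a mean of 5 CPM and none at all, marker covariates, leaving out libraries, and edgeR 4.0.16 and DESeq2 1.42.0 on the recovered reads. The fit was tested on simulated data. Some items are not reported here.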

Additional observations from a re-analysis of the deposited data

Results flagged for a closer look

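Genes are listed here that passed the limma test of stereotypy minus no stereotypy (n = 3 libraries each). Among the members this was Plcb1, with a difference of 0.44 on the log2(CPM + 1) scale, higher in 3 of 3 libraries with stereotypy. The targeted gene Ntrk2 differed by 1.05. Of the pathway genes whose difference is given above, it was 1.58 for Dgkb, 0.9 for Ednrb, 0.9 for Unc13c, 0.84 for Grm5 and 0.63 for Htr2c. Each of these was higher in all 3 libraries with stereotypy than in all 3 without. Lower in all 3 libraries with stereotypy than in all 3 without were Ntsr1 (-1.75) and Adra1b (-1.57). The 132 tested pathway genes had 8 calls in each direction, so this list is not complete. Each listed call ended without stereotypy library 2 or 3 or no-stereotypy library 1 or 2. Those fits, and those with either marker covariate, had 0 to 1 calls over all tested genes. Whether the effect of TrkB deletion itself differed was not tested.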

How the results depend on the processing

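For the members between the deleted groups (1 call, Plcb1), limma made 2 calls with a replicate block (Plcd4 added, 0.65, adjusted p = 0.0449), 0 with the glial and vascular covariate, 0 with the other-neuron covariate (2 and 1 at an unadjusted p under 0.05), and 0 to 1 when a library was left out. For the members against control (2), it was 1 without a filter, 1 with the glial and vascular covariate, 1 by edgeR and 1 to 2 when a library was left out. For the pathway against control (19), it was 8 without a filter, 0 with the glial and vascular covariate, 32 by DESeq2 and 7 to 20 when a library was left out. For the pathway between the deleted groups (16), it was 6 without a filter, 0 with either covariate (33 with the glial and vascular and 49 with the other-neuron covariate at an unadjusted p under 0.05), 29 by DESeq2 and 0 to 26 when a library was left out.

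Directions turned for these differences, none of them past the threshold. For stereotypy minus no stereotypy, Plce1 (-0.11 to 0.16 when a library was left out) was -0.11 without stereotypy library 2, -0.033 without no-stereotypy library 3 (also with control library 3 left out) and -0.13 with the other-neuron covariate. Plcb3 (-0.012 to 0.19) was -0.012 without stereotypy library 1 or no-stereotypy library 3 (also with control library 3 left out) and -0.38 with the glial and vascular covariate. With the other-neuron covariate Plcb4 was 0.22, Plcd1 0.15 and Plcl1 0.37, and Plcl1 (-0.22 to 0.018) was 0.018 without no-stereotypy library 3, with or without control library 3. Against control, Dgkb (-0.012 to 0.39) was -0.012 and Tbc1d12 (-0.14 to 0.24) -0.14 without control library 2, Fra10ac1 -0.039 and Tbc1d12 -0.25 with the glial and vascular covariate, and Tbc1d12 -0.031 by edgeR and -0.027 by DESeq2. The cause was not tested. The glial and vascular covariate also ended the limma calls of every pathway gene and neighbour named against control. Over all tested genes it left 28 calls in that comparison, beside 784 without it. Over all alternatives the difference was -0.87 to -0.68 for Prkcb, -1.33 to -1.13 for Pitpnm3, -0.64 to -0.48 for Pitpnc1 and -1.25 to -0.84 for Rbp4. Plce1 against control was 2.04 at a pseudocount of 4.

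Over all genes against control, 503 were higher and 281 lower, and 391 and 361 after median-of-ratios rescaling. Whether the replicate numbers pair the libraries was not settled. Same-numbered libraries had correlations of deviations of -0.08 to 0.406, and other pairs across groups -0.422 to 0.247. Among the no-stereotypy libraries, each control correlated best with that of its own number, but this did not hold for every library. With a replicate block, limma calls over all genes went from 784 to 880 against control and from 1398 to 1788 between the deleted groups. Depth limits Plcg2, at 13 to 50 reads per library.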
